A study of Mus musculus with 8 samples.

Results

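Of 10 genes that move iron and heme across the intestinal epithelium, store iron or sense it, Heph was higher in the crypts of Mex3a KO than of WT mice at an unadjusted p under 0.05, and none passed the threshold after adjustment. Ftl1 also reached an unadjusted p under 0.05 when mice were paired by number, or when WT mouse 2 was left out. The genes are Slc40a1, Slc11a2, Cybrd1, Heph, Tfrc, Fth1, Ftl1, Aco1, Ireb2 and Slc46a1. They were taken by symbol from the 55114 genes in the table, and all 10 were among the 16109 genes with enough reads to be tested. RNA was sequenced from the intestinal crypts of 4 KO and 4 WT mice, all C57BL/6 and 8 weeks old. The KO mice lacked exon 1 and part of exon 2 of Mex3a, an RNA-binding protein, through a constitutive deletion and not one limited to the intestine, and the WT mice were littermates. Crypts were freed with EDTA and strained, so they were a fraction enriched for crypts and not a sorted cell type, and the labels name the intestine without its segment.

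Between 20324184 and 24726221 reads per WT mouse and between 23489180 and 30654105 per KO mouse were counted on genes. Mex3a was counted 236 to 328 times in the WT mice and 6 to 28 times in the KO mice, so the target gene was low in every library labelled KO. Mex3a was also the 1 gene of all those tested with an adjusted p under 0.05 in edgeR's quasi-likelihood test, which was 0.00621% of them (adjusted p = 0.0310, and 0.126 with the replicate block, which pairs mice by number). Y-linked transcripts were found in mice 1 and 2 of each genotype, and Xist in mice 3 and 4. No source used here says whether a mouse number marks a litter.

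Dietary iron reaches the blood through the enterocyte, the absorptive cell that crypts produce and that matures as it moves up the villus. On its luminal side, CYBRD1 reduces ferric iron and SLC11A2 (DMT1) carries the ferrous form into the cell, while SLC46A1 carries folate and has also been described as a heme carrier. Inside, iron is stored in ferritin, a shell of heavy (FTH1) and light (FTL1) chains. On the side of the blood, SLC40A1 (ferroportin) exports iron and HEPH (hephaestin), a copper-dependent oxidase, converts it to the form that transferrin binds. TFRC (transferrin receptor 1) brings transferrin-bound iron back from the blood, and dividing crypt cells rely on it. ACO1 and IREB2 encode the iron regulatory proteins IRP1 and IRP2, which bind a hairpin, the iron-responsive element, when iron is scarce. Bound to the 5′UTR, they block translation, and bound to the 3′UTR of Tfrc, they keep the mRNA from decay.

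The hairpins are shown because they divide the 10 genes into those with a match to the site of the iron regulatory proteins and those with none. GENCODE M21 transcripts (GRCm38) were searched on the sense strand for the loop CAGTGN with a C lying 5 bases before it and at least 4 of the 5 bases between them paired with those after the loop. The sequences run 5′ to 3′, with the 6 bases of the loop in capitals. They include 6 more bases on each side of the searched part, where pairing was not required.

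Fth1, 5′UTR: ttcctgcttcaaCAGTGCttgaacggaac

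Ftl1, 5′UTR: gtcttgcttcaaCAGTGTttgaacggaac

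Slc40a1, 5′UTR: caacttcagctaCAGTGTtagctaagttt

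Slc11a2, 3′UTR: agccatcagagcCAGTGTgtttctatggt

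Tfrc, 3′UTR, match 1: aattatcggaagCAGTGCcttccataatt

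Tfrc, 3′UTR, match 2: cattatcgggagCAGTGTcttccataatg

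Tfrc, 3′UTR, match 3: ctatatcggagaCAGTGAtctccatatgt

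Tfrc, 3′UTR, match 4: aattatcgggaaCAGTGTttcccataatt

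The Fth1 match lay in exon 1 at chr19:9982732-9982760 on the + strand and was present in 4 of its 5 coding transcripts. The Ftl1 match lay in exon 1 at chr7:45459779-45459807 on the - strand. The Slc40a1 match lay in exon 1 at chr1:45925465-45925493 on the - strand, in 1 of 4 coding transcripts. The 4 Tfrc matches lay in exon 19 on the + strand, at chr16:32631219-32631247, chr16:32631598-32631626, chr16:32631663-32631691 and chr16:32631710-32631738. The Slc11a2 match lay in exon 16 at chr15:100395153-100395181 on the - strand, in 1 of 6 coding transcripts, and paired only 4 of the 5 bases. No match was found in the UTRs of Heph, Cybrd1, Aco1, Ireb2 or Slc46a1. Absence of a match does not exclude an element, since of 7 other mRNAs known to carry one the same search matched only 2 in the 5′UTR and 2 in the 3′UTR, or 2 and 0 with all 5 bases paired. Of 21901 genes with a coding transcript, 0.941% held a match in the 5′UTR and 3.98% in the 3′UTR, against 3 and 2 of the 10 genes. With all 5 bases paired, the shares were 0.142% and 0.589%, and Slc11a2 no longer matched. A match is a description of the letters and was not tested for binding.

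The order of the levels was set by FPKM, which divides the reads on a gene by its length and by the library total. The length is that given with the counts for the gene as a whole, such as 9000 bases for Slc40a1 and 866 for Fth1. It may differ from the length of the mRNA present, so the order holds for this measure only. Fth1 stood at 1156 ± 99.95 FPKM (mean ± SD, n = 8 mice), 7.06 times the mean of Ftl1 at 164 ± 30.5 FPKM. Tfrc followed at 82.8 ± 11.4 FPKM and Aco1 at 42.8 ± 4.14 FPKM, and up to this point no range of a gene over the 8 mice overlapped that of the next. Ireb2 at 12.6 ± 0.55 FPKM and Heph at 11.3 ± 4.22 FPKM overlapped, with Ireb2 above Heph in 6 of 8 mice. Heph and Slc11a2, the latter at 8.69 ± 1.42 FPKM, overlapped as well. Slc46a1 at 3.33 ± 1.55 FPKM, Slc40a1 at 3.004 ± 0.61 FPKM and Cybrd1 at 1.20 ± 0.80 FPKM were the lowest, with Slc46a1 above Slc40a1 in 4 of 8 mice and Slc40a1 above Cybrd1 in all 8. In FPKM, the genes of storage, uptake from the blood and sensing thus stood above the 5 genes of luminal uptake and export, Heph overlapping with Ireb2. The FPKM of Fth1 was 5.19 to 9.40 times that of Ftl1 in single mice, and the FPKM of Tfrc was 0.0621 to 0.0872 of that of Fth1.

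**Figure D1:**
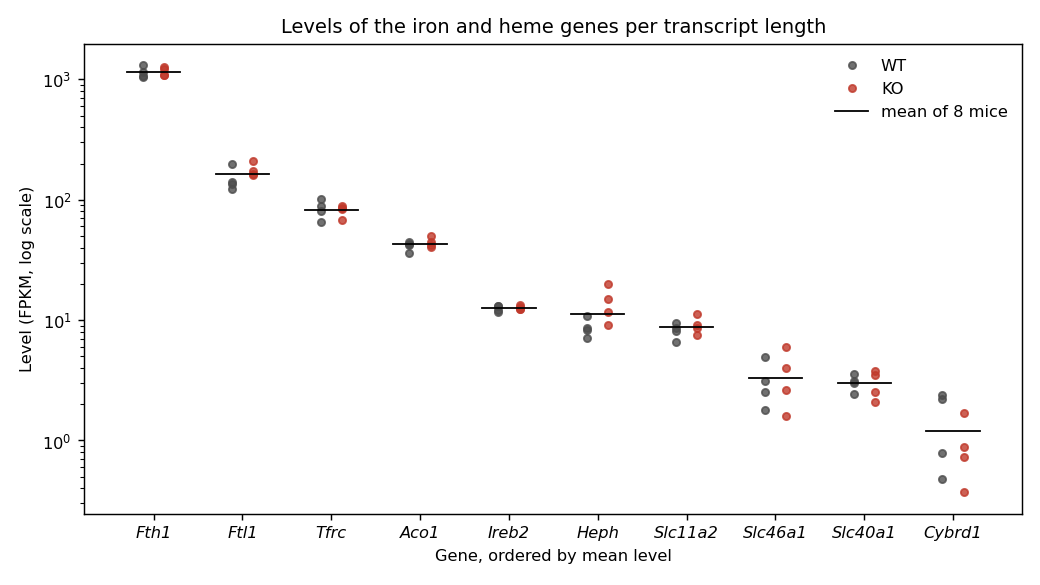
FPKM on a log axis of the 10 genes in each mouse (grey, 4 WT; red, 4 KO), ordered by the mean of the 8 mice (black line). Fth1 lies near 1156 FPKM and Cybrd1 near 1.20 FPKM, and the WT and KO points of each gene overlap.

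KO was compared with WT to find which of these genes depend on Mex3a. Levels in this comparison are CPM, the counts of a gene relative to the reads of its library, scaled by TMM factors. Of the 10 genes, 1 was higher in KO mice at an unadjusted p under 0.05 and 0 were lower, whereas 5.33% of all genes tested were higher and 3.05% were lower. With adjusted p, 0 of the 10 were called by edgeR, and likewise 0 by DESeq2 and 0 by limma on log2(FPKM + 1), with unadjusted p under 0.05 for Heph alone in both of those. No gene had its 4 KO mice fully apart from its 4 WT mice, a separation found for 4.05% of all genes tested. The median log2 fold change of the 10 was 0.06, beside -0.016 for all genes tested, and 7 of the 10 lay above 0. In bulk crypts, fewer cells of a type and less RNA per cell cannot be told apart.

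**Figure D2:**
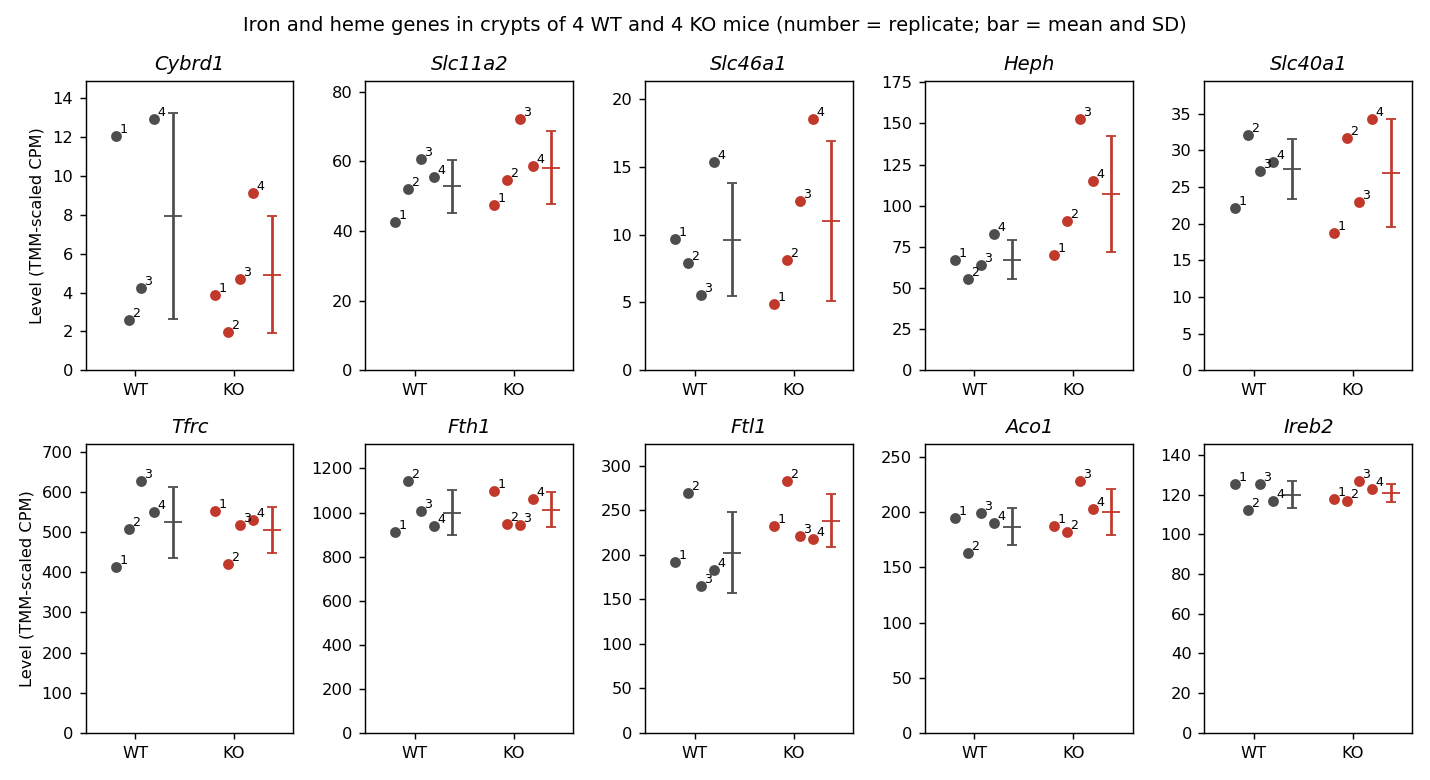
CPM of each gene in every mouse, with the replicate number beside the point and the mean and SD at its right (4 WT, grey; 4 KO, red; each axis starts at 0). KO mice 2, 3 and 4 lie above all WT mice for Heph, while Cybrd1 varies about 5.04-fold among the WT mice alone.

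Heph (ENSMUSG00000031209, chrX:96455359-96574485, + strand), the oxidase of iron export, was 66.7, 55.3, 64.1 and 83.0 CPM in WT mice 1 to 4 and 70.3, 90.5, 153 and 115 CPM in KO mice 1 to 4. KO mice 2, 3 and 4 exceeded every WT mouse, and KO mouse 1 lay below WT mouse 4. The mean was 67.3 ± 11.6 CPM in WT and 107 ± 35.5 CPM in KO mice (SD, n = 4 each). The log2 fold change was 0.67 (SE 0.22), a 1.59-fold higher level with a 95% interval of 1.13 to 2.25 (edgeR unadjusted p = 0.0140, adjusted p = 0.518). A two-sided exact permutation test on the log2 CPM of the 8 mice gave p = 0.0571, against a smallest possible p of 0.0286; it was run for each of the 10 genes, and the other 9 gave larger values. Heph stayed at an unadjusted p under 0.05 in all 18 alternative fits, with log2 fold changes from 0.45 without KO mouse 3 to 0.83 without KO mouse 1 and adjusted p from 0.146 to 0.952. Heph lies on the X chromosome, and KO minus WT on the log2 CPM scale was 0.39 in the mice with Y transcripts and 0.86 in those with Xist, a difference that was not tested.

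Slc40a1 (ENSMUSG00000025993, chr1:45908068-45926523, - strand), the iron exporter that works beside HEPH, was 22.1, 32.1, 27.2 and 28.5 CPM in WT mice 1 to 4. In KO mice 1 to 4 it was 18.7, 31.7, 22.9 and 34.3 CPM. The KO mice spanned the whole range of the WT mice and went beyond it at both ends. Its log2 fold change was -0.028 (SE 0.20), with a 95% interval of 0.72-fold to 1.33-fold (edgeR unadjusted p = 0.891, adjusted p = 0.985).

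On the luminal side, Cybrd1 (ENSMUSG00000027015, chr2:71117923-71142926, + strand), the ferric reductase, was 12.1, 2.57, 4.25 and 13.0 CPM in WT mice 1 to 4. It was 3.86, 1.98, 4.72 and 9.11 CPM in KO mice 1 to 4. Mouse 4 of each genotype was high and mouse 2 of each was the lowest, and WT mice 1 and 4 lay above every KO mouse. The log2 fold change of -0.69 (SE 0.57) was the largest of the 10 genes in size in this fit, but smaller than that of Heph with the replicate block (-0.60 against 0.63) and with limma on log2(FPKM + 1) (-0.32 against 0.58). Its 95% interval ran from 0.25-fold to 1.52-fold (edgeR unadjusted p = 0.258, adjusted p = 0.787). It was -0.35 without WT mouse 4 and -1.18 without KO mouse 4.

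Slc11a2 (ENSMUSG00000023030, chr15:100387898-100425072, - strand), the ferrous iron importer, was 42.6, 52.1, 60.7 and 55.5 CPM in WT mice 1 to 4. In KO mice 1 to 4 it was 47.3, 54.7, 72.2 and 58.6 CPM. Each KO mouse exceeded the WT mouse of the same number, but the genotypes overlapped, and the log2 fold change was 0.14 (SE 0.14, edgeR unadjusted p = 0.349, adjusted p = 0.834). Its 95% interval was 0.88-fold to 1.38-fold.

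Slc46a1 (ENSMUSG00000020829, chr11:78465697-78472059, + strand), the folate and heme carrier, was 9.66, 7.90, 5.57 and 15.4 CPM in WT mice 1 to 4. In KO mice 1 to 4 it was 4.91, 8.11, 12.5 and 18.6 CPM. Mouse 4 was the highest in each genotype, and both the lowest and the highest value were in KO mice. The log2 fold change of 0.19 (SE 0.42) had a 95% interval of 0.60-fold to 2.19-fold (edgeR unadjusted p = 0.652, adjusted p = 0.943). KO minus WT was -0.46 on the log2 CPM scale in the mice with Y transcripts and 0.71 in those with Xist, which was not tested, and without KO mouse 4 the fold change fell below 0, to -0.18.

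Of the ferritin chains, neither passed an unadjusted p under 0.05 in the fit without pairing. Fth1 (ENSMUSG00000024661, chr19:9982703-9985092, + strand), the chain that oxidises iron for storage, was 912, 1141, 1005 and 940 CPM in WT mice 1 to 4 and 1098, 949, 943 and 1062 CPM in KO mice 1 to 4. All KO values lay inside the WT range, and the interval of the ratio was 0.87-fold to 1.19-fold (log2 fold change 0.019, SE 0.10, edgeR unadjusted p = 0.853, adjusted p = 0.981). Ftl1 (ENSMUSG00000050708, chr7:45457944-45459884, - strand), the light chain, was 192, 270, 165 and 183 CPM in WT mice 1 to 4. In KO mice 1 to 4 it was 233, 283, 222 and 218 CPM. All KO mice exceeded WT mice 1, 3 and 4, while WT mouse 2 lay above 3 of the 4 KO mice. The log2 fold change was 0.24 (SE 0.15), a 1.18-fold level with an interval of 0.925 to 1.498 (edgeR unadjusted p = 0.161, adjusted p = 0.716). Each KO mouse exceeded the WT mouse of its number, and with the replicate block in the fit, Ftl1 reached an unadjusted p of 0.0174 (log2 fold change 0.25, SE 0.081, adjusted p = 0.336). With that block, 7.14% of all genes tested were higher and 4.13% lower, beside 2 and 0 of the 10. Leaving out WT mouse 2 gave 0.40 on the log2 scale (edgeR unadjusted p = 0.00631, adjusted p = 0.601). With the Xist or Y group as a covariate, the edgeR unadjusted p of Ftl1 was 0.0684 (adjusted p = 0.485). Ferritin genes have near-identical copies that can share reads, and Ftl1-ps1 was counted 171 to 323 times per mouse beside 3387 to 7285 counts of Ftl1. How shared reads were assigned was not examined, so the size of this uncertainty in the ferritin values is not known.

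Tfrc (ENSMUSG00000022797, chr16:32608920-32632794, + strand), the transferrin receptor with the 4 hairpins in its 3′UTR, was 414, 506, 626 and 549 CPM in WT mice 1 to 4. In KO mice 1 to 4 it was 552, 421, 517 and 531 CPM. The KO mice all lay inside the WT range, with a log2 fold change of -0.052 (SE 0.14, edgeR unadjusted p = 0.712, adjusted p = 0.956) and an interval of 0.78-fold to 1.19-fold.

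Of the sensors, Aco1 (ENSMUSG00000028405, chr4:40143081-40198338, + strand), which encodes IRP1, was 195, 163, 200 and 191 CPM in WT mice 1 to 4. In KO mice 1 to 4 it was 188, 182, 228 and 203 CPM. Its log2 fold change was 0.098 (SE 0.096, edgeR unadjusted p = 0.332, adjusted p = 0.824). KO mouse 3 was its highest value, as it was for Heph, Slc11a2 and Ireb2. Ireb2 (ENSMUSG00000032293, chr9:54863789-54912530, + strand), which encodes IRP2, was 125, 112, 126 and 117 CPM in WT mice 1 to 4 and 118, 117, 127 and 123 CPM in KO mice 1 to 4. This was the narrowest spread of the 10 genes, with the highest WT mouse 1.12-fold above the lowest. The interval of the ratio was correspondingly narrow, 0.91-fold to 1.12-fold (log2 fold change 0.012, SE 0.066, edgeR unadjusted p = 0.863, adjusted p = 0.983).

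**Figure D3:**
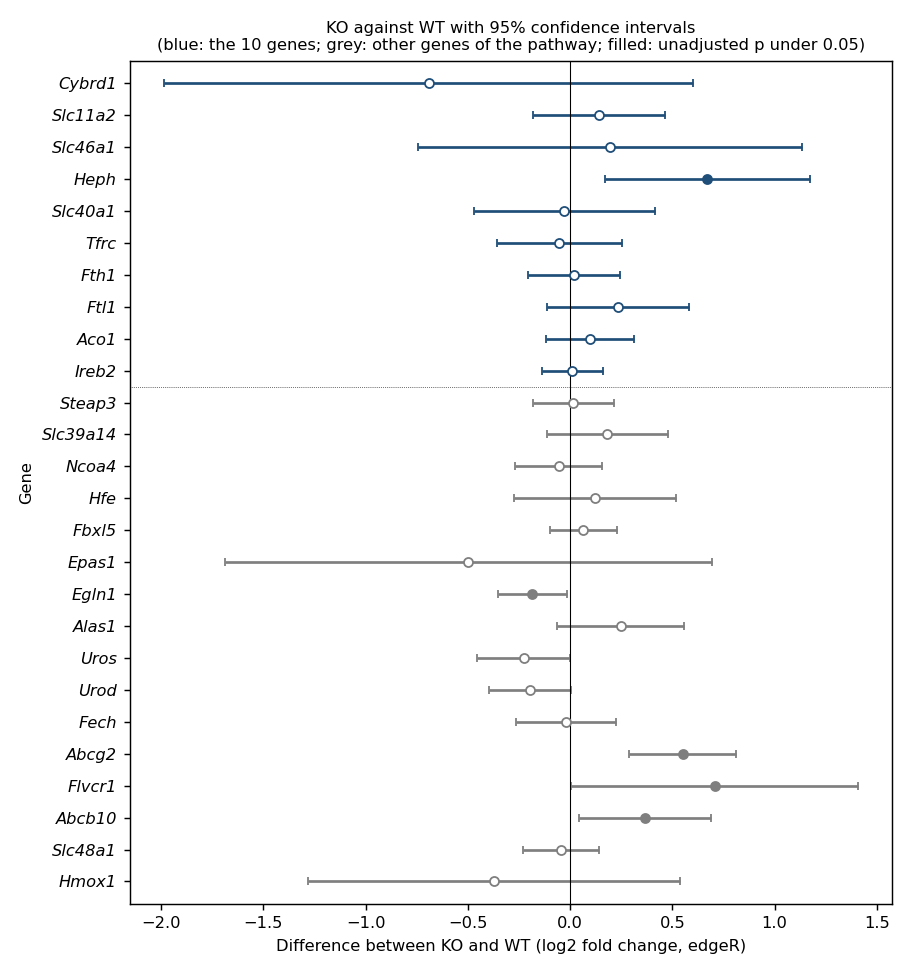
log2 fold changes of KO against WT with 95% intervals from edgeR for the 10 genes (blue) and for named genes of the same pathways (grey), filled where the unadjusted p was under 0.05. The interval of Heph lies above 0, those of the other 9 genes cross it, and the intervals of Cybrd1 and Slc46a1 are the widest of the 10.

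The rest of the pathway was examined in 7 lists of 110 genes in all, of which 94 were tested. At an unadjusted p under 0.05, 3 were higher in KO mice and 1 was lower, 4.26% of those tested beside 8.38% of all genes. None had an adjusted p under 0.05 in edgeR. With the replicate block 4 were higher and 2 lower, beside the 7.14% and 4.13% of all genes in that fit, and Abcg2 and Abcb10 were the 2 called in both fits. With single mice left out, the calls numbered from 1, without WT mouse 2 or KO mouse 3, to 7, without KO mouse 1. The median log2 fold change was 0.012.

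Among the other 22 genes of cellular iron uptake, storage and release, 16 were tested and 0 passed in either direction by edgeR's unadjusted p, or 1 with the replicate block. With single mice left out, Slc39a14 was called higher without WT mouse 1, Cubn higher without WT mouse 4, KO mouse 1 or KO mouse 2, and Slc25a28 lower without KO mouse 1. The gene called with the block, named here because the pairing changed its call, was Cubn, an endocytic receptor that takes up transferrin in the kidney and also stands in the ileum list. Cubn was 15.9, 16.9, 22.7 and 94.8 CPM in WT mice 1 to 4 and 36.2, 28.5, 245 and 162 CPM in KO mice 1 to 4. Each KO mouse exceeded the WT mouse of its number, while KO mice 1 and 2 lay below WT mouse 4. Its log2 fold change was 1.65 (SE 0.81, edgeR unadjusted p = 0.0708, adjusted p = 0.618), and 1.49 with the replicate block (SE 0.45, unadjusted p = 0.0124, adjusted p = 0.311). Steap3, an endosomal ferric reductase, was 27.4 to 33.4 CPM in WT and 30.8 to 33.7 CPM in KO mice. Slc39a14, a metal importer, was 93.4 to 141 and 114 to 148 CPM, and Ncoa4, the receptor that delivers ferritin for breakdown, was 42.2 to 51.9 and 40.8 to 50.0 CPM. Each of these ranges overlapped between the genotypes. Trf, which encodes transferrin and is made mainly by the liver, was counted 3 to 5 times per WT mouse and 0 to 2 times per KO mouse, too few to pass the filter. Without the filter it was lower in KO mice at an unadjusted p of 0.0158 in edgeR and 0.00209 in limma (adjusted p = 0.641 and 0.599).

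Of 18 genes that regulate iron, 13 were tested, 0 were higher and 1, Egln1, was lower. Bmp6 was called higher without WT mouse 4, and by limma on log2(FPKM + 1) without a filter. Egln1, an oxygen- and iron-dependent prolyl hydroxylase that marks the hypoxia-inducible factors for decay, was 57.8, 65.5, 60.2 and 63.5 CPM in WT mice 1 to 4 and 57.3, 48.3, 55.3 and 56.5 CPM in KO mice 1 to 4. All KO mice lay below all WT mice, by a narrow margin (log2 fold change -0.18, SE 0.075, edgeR unadjusted p = 0.0357, adjusted p = 0.567). With the replicate block its unadjusted p was 0.0642, it was 0.112 without KO mouse 2, and it also exceeded 0.05 without WT mouse 2, 3 or 4 or KO mouse 3. Epas1, which encodes HIF2α, the factor known to drive Slc11a2, Cybrd1 and Slc40a1 in the gut, ranged from 17.2 to 81.7 CPM in WT and from 16.5 to 55.6 CPM in KO mice (unadjusted p = 0.370). Fbxl5, which targets IRP2 for decay when iron is present, was 77.7 to 87.1 and 78.8 to 92.8 CPM, and Hfe was 4.22 to 5.96 and 4.62 to 6.49 CPM. Hamp, the iron hormone hepcidin of the liver, was counted 1 to 5 times per WT mouse and 2 to 6 times per KO mouse and was not tested. Of 14 genes commonly used as targets of the hypoxia-inducible factors, iron genes left out, 12 had log2 fold changes above 0 with a median of 0.19, and 0 passed an unadjusted p under 0.05, or 2, Ldha and Slc2a1, without KO mouse 4.

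Of the 9 enzymes of heme synthesis, 8 were tested and 0 passed by edgeR's unadjusted p in the fit without pairing. Uros was called lower by DESeq2 and by limma on log2(FPKM + 1), Urod and Uros with upper-quartile factors, Urod without WT mouse 3 or KO mouse 1 and Uros without WT mouse 4, each at an unadjusted p under 0.05. Alas1, the rate-limiting first enzyme, was 73.1, 89.5, 95.5 and 102 CPM in WT mice 1 to 4 and 94.2, 96.0, 134 and 104 CPM in KO mice 1 to 4 (log2 fold change 0.25, SE 0.14, edgeR unadjusted p = 0.104, adjusted p = 0.658). Fech, which inserts the iron, was 47.0 to 58.8 and 44.1 to 59.9 CPM. Uros and Urod, neighbours in the middle of the pathway, were chosen here after their values were seen. Uros was 20.97 to 26.4 CPM in WT and 18.7 to 20.95 CPM in KO mice, without overlap (log2 fold change -0.23, SE 0.10, edgeR unadjusted p = 0.0507). Urod was 46.3 to 58.2 and 43.1 to 50.3 CPM (log2 fold change -0.20, SE 0.089, edgeR unadjusted p = 0.0537). With the replicate block the unadjusted p was 0.0385 for Alas1, 0.0464 for Uros and 0.0229 for Urod, and the adjusted p was 0.361 or more for each.

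Of 18 genes of heme transport and breakdown, 15 were tested, 3 were higher and 0 lower. The 3 became 2 with the replicate block, and 1, Abcg2, without WT mouse 1, WT mouse 2 or KO mouse 3. Without WT mouse 3, 2 were higher and 1, Blvrb, was lower. Abcg2, an efflux pump of the apical membrane that also exports porphyrins, was 58.4, 62.1, 57.8 and 78.2 CPM in WT mice 1 to 4 and 81.6, 92.1, 96.6 and 106 CPM in KO mice 1 to 4. The genotypes did not overlap. Its log2 fold change was 0.55 (SE 0.12), a 1.47-fold level with a 95% interval of 1.22 to 1.76 (edgeR unadjusted p = 0.000959, adjusted p = 0.429), and it was the only listed pathway gene whose adjusted p fell below 0.05 with DESeq2 (0.00882), a test that gave 25.1% false calls on simulated counts. Over the alternative fits its adjusted p ran from 0.00882 to 0.952. Its unadjusted p was under 0.05 in all 18 alternative fits, and KO minus WT was 0.53 in the mice with Y transcripts and 0.59 in those with Xist on the log2 CPM scale.

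Abcb10, a transporter of the inner mitochondrial membrane linked to heme synthesis, was 30.0, 33.2, 39.0 and 43.8 CPM in WT mice 1 to 4 and 40.3, 45.6, 57.6 and 44.6 CPM in KO mice 1 to 4. KO mouse 1 lay below WT mouse 4, and the other KO mice lay above all WT mice (log2 fold change 0.37, SE 0.14, edgeR unadjusted p = 0.0298, adjusted p = 0.557). Its unadjusted p was 0.0928 without KO mouse 3. Flvcr1, a plasma membrane protein described as a heme exporter, was 12.1, 10.3, 9.03 and 13.2 CPM in WT mice 1 to 4 and 13.9, 9.78, 30.5 and 18.7 CPM in KO mice 1 to 4. KO mouse 3 was far above the rest and KO mouse 2 was within the WT range. The log2 fold change was 0.71 (SE 0.31, edgeR unadjusted p = 0.0483, adjusted p = 0.589), and leaving out KO mouse 3 gave 0.34 (unadjusted p = 0.173). With the replicate block the unadjusted p of Flvcr1 was 0.0794. Hmox1, the inducible heme oxygenase, was counted only 4 to 18 times per mouse, at 0.50 to 0.79 CPM in WT and 0.17 to 0.70 CPM in KO mice. Slc48a1, which moves heme out of lysosomes, was 22.3 to 24.0 and 21.5 to 24.0 CPM.

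All 25 genes of iron-sulfur cluster assembly were tested, and 0 passed in either direction, with a median log2 fold change of -0.021. Of 7 other mRNAs known to carry an iron-responsive element, 5 were tested and 0 passed, with a median of 0.052.

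The samples were checked against cell type markers, since HEPH and the other proteins of iron absorption act in the enterocyte. All 10 enterocyte markers had log2 fold changes above 0 with a median of 0.92, and 2 passed an unadjusted p under 0.05, Apoa1 and Anpep. The 2 became 5 with the replicate block, 0 without KO mouse 3, 1 without WT mouse 1 or WT mouse 2, 4 without KO mouse 2, 5 without WT mouse 4 and 7 without KO mouse 1. Their summed level was 2255, 1622, 2540 and 4417 CPM in WT mice 1 to 4 and 2646, 3287, 10460 and 6380 CPM in KO mice 1 to 4. The order of the mice was close to that of Heph, with KO mouse 3 the highest and WT mouse 2 the lowest in both. KO mouse 3 was not the highest for enterocyte markers alone. It was also the highest for the ileum, proximal intestine and lymphocyte markers given below, with sums of 1474, 1405 and 56.7 CPM. Of 6 markers of the ileum, 5 were higher in KO mice at an unadjusted p under 0.05 and 0 were lower (6 with the replicate block, which added Cubn, and 3 without WT mouse 3 or KO mouse 4), and their sum was 159 to 705 CPM in WT and 589 to 1474 CPM in KO mice. Of 8 crypt stem cell markers, 4 were lower and 0 higher, or 2 lower, Olfm4 and Smoc2, without WT mouse 1, WT mouse 4 or KO mouse 2, and their sum was 4496 to 5181 CPM in WT and 3346 to 4124 CPM in KO mice, without overlap. None of these markers passed after adjustment in edgeR, though Slc51a of the ileum list did with DESeq2 (adjusted p = 0.0357), and none was at 0 in all mice. The part of these differences in the Heph result was not tested.

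Of 10 markers of the duodenum and proximal intestine, where iron is chiefly absorbed, 9 were tested, 1 was higher and 1 lower, or 1 higher and 2 lower with the replicate block, which added Gata4. With single mice left out, 0 to 3 were higher and 1 to 3 lower. The sum of the 10 was 445 to 954 CPM in WT and 477 to 1405 CPM in KO mice. Of 6 colon markers, 2 were tested and 0 passed, and Hoxb13 and Prdx6b were at 0 in all mice. Macrophages and red cells handle much iron and heme. The 10 macrophage markers summed to 38.5 to 43.8 CPM in WT and 31.7 to 44.0 CPM in KO mice with 0 of 8 tested passing, and the 8 markers of the red cell lineage summed to 1.47 to 4.71 and 0.970 to 2.18 CPM. Hba-a1 was lower in KO mice, but not without WT mouse 1, WT mouse 4, KO mouse 2, KO mouse 3 or KO mouse 4. Of the 8 lymphocyte markers 2 were higher, or 4 with the replicate block, 0 without WT mouse 3 or KO mouse 3, 1 without WT mouse 1 or KO mouse 4, 3 without WT mouse 2, 4 without WT mouse 4 or KO mouse 1 and 6 without KO mouse 2. They summed to 13.7 to 27.0 and 21.9 to 56.7 CPM, and of the 4 stroma and endothelium markers tested 0 passed, with sums of 4.34 to 10.5 and 4.83 to 9.64 CPM.

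**Figure D4:**
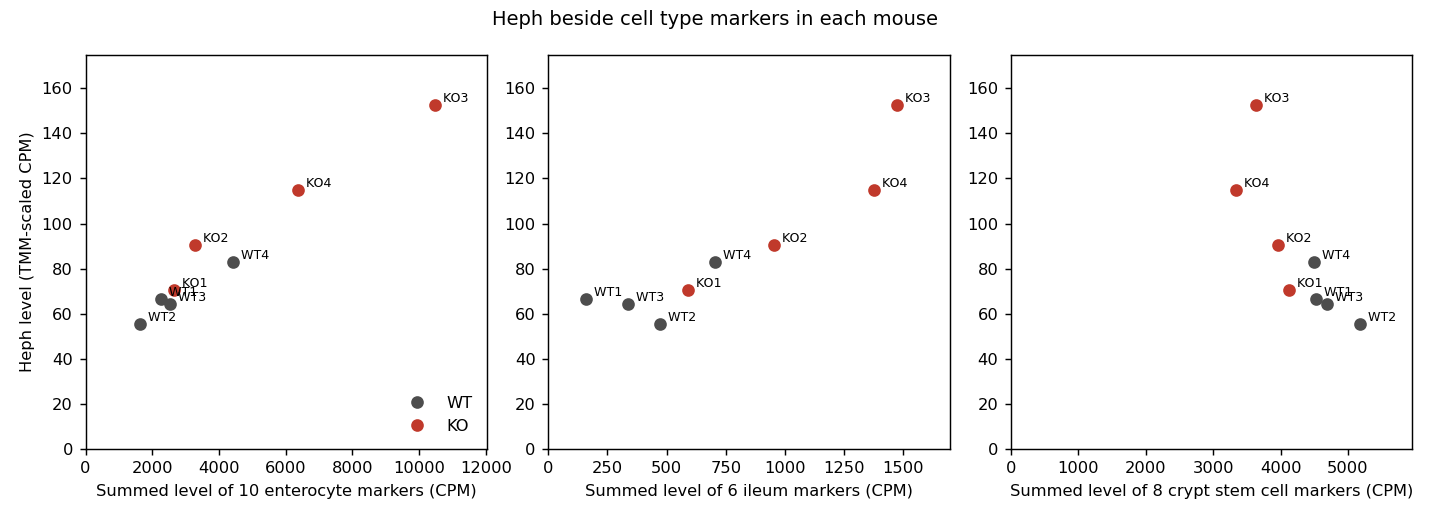
CPM of Heph in each mouse (4 WT, grey; 4 KO, red) against the summed CPM of 10 enterocyte, 6 ileum and 8 crypt stem cell markers. KO mouse 3, with 153 CPM of Heph, also has the highest enterocyte sum of 10460 CPM and the highest ileum sum of 1474 CPM.

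The pattern of Cybrd1, the gene with the widest spread, was compared with that of 9996 other genes with a mean log2 CPM of at least 3. Slc27a1, a fatty acid transporter, was the most similar (Pearson's r = 0.967 over the log2 CPM of the 8 mice), followed by D630039A03Rik (r = 0.966) and Tent5c (r = 0.958). These are the highest of 9996 values over only 8 mice and are given as a description. Slc27a1 was 63.2, 34.6, 50.3 and 65.3 CPM in WT mice 1 to 4 and 38.7, 30.5, 41.8 and 57.02 CPM in KO mice 1 to 4, again lowest in mouse 2 and highest in mouse 4 of each genotype.

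**Figure D5:**
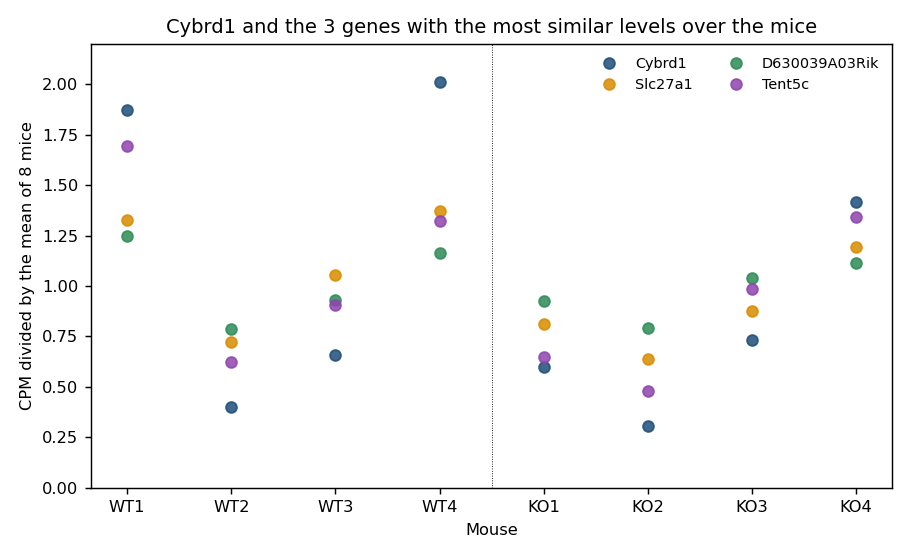
CPM of Cybrd1 and of the 3 genes with the most similar pattern in each mouse, divided by the mean of the 8 mice. Mouse 2 is the lowest of each genotype for Cybrd1 and Slc27a1, and Cybrd1 runs from 2.57 to 13.0 CPM within the WT mice alone.

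MEX3A recognises a degenerate element in the 3′UTR of its targets, known as the MEX3A recognition element. Taking for each gene the coding transcript of greatest length, the element was found in the 3′UTR of 8 of the 10 genes and in 74.2% of 13033 tested genes with a 3′UTR. Cybrd1 held 15 matches in 4269 bases, Ireb2 held 12 in 2789, Tfrc held 9 in 2458 and Slc40a1 held 8 in 1338. Slc11a2 held 6 in 2650 bases. Heph, Aco1 and Slc46a1 held 2 matches each, and the short 3′UTRs of Fth1 and Ftl1, of 150 and 163 bases, held 0. Beside tested genes with a 3′UTR of similar length, Heph, Aco1 and Slc46a1 each compared with a median of 1, Slc40a1 with 3, Cybrd1 with 11, Tfrc with 6, Ireb2 with 7, Slc11a2 with 7 and both ferritin genes with 0. No binding was measured in these crypts.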

How the data were processed

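Crypt RNA of 4 Mex3a KO and 4 littermate WT mice was sequenced on the Illumina platform. The submitters' processing notes name CASAVA, HISAT2 2.0.5 and featureCounts 1.5.0-p3, and strandedness is not given in the sources used here. For every gene the authors deposited the raw count of reads in each mouse, not normalized. They also deposited FPKM, in which these counts are scaled to the length of the gene and the size of the library. The authors' own fold changes and p-values were not used.

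Genes were filtered with filterByExpr (minimum count 10), scaled by TMM and compared with edgeR 4.0.16 in R 4.3.3 (quasi-likelihood test, genotype the only term, all 8 mice, Benjamini-Hochberg adjustment over 16109 genes, threshold 0.05). Prior degrees of freedom were 3.34 against 6 residual ones, with a common biological coefficient of variation of 0.237. On counts simulated for 16109 genes with 200 changed, edgeR recovered 92% of 4-fold and 66% of 2-fold changes with 4.8% false calls, and DESeq2 96% and 83% with 25.1% false calls. Each gene was drawn independently, without variation shared by the genes of a mouse, so these shares may not hold for the real mice. Libraries within a genotype differed beyond sampling noise (chi-square over its degrees of freedom, 23.4 to 86.3).

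Alternatives were DESeq2 1.42.0, RLE and upper-quartile factors, other filters, limma 3.58.1 on log2(FPKM + 1) and log2(FPKM + 0.1), the Xist or Y transcript group as a covariate, each mouse left out and the replicate block. Same-numbered mice deviated together (correlations 0.129, 0.501, 0.141 and 0.294), so the numbers were treated as pairing them, and the paired value is given where it changes a call. Over autosomal genes the correlations were 0.0873 to 0.481. Same-numbered mice also share the Xist or Y group, and unlike-numbered mice were not correlated. Whether the numbers mark pairs is therefore not known.

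The 10 genes and all lists were chosen with earlier results of these data known. Named from the lists by rule were genes with an unadjusted p under 0.05, 14 genes central to iron and heme, Mex3a, and the 3 genes most similar to the member with the largest fold change. Uros, Urod, Cubn, Slc25a28, Bmp6, Blvrb, Ldha and Slc2a1, and Gata4, Hoxb13 and Prdx6b among the markers, fall outside this rule and were named after their values were seen. All 188 list genes were found, 3 under an older symbol.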

Additional observations from a re-analysis of the deposited data

How the results depend on the processing

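The 18 alternative fits left 0 of the 10 genes with an adjusted p under 0.05 and 0 lower at an unadjusted p under 0.05. Heph, Ftl1, Slc11a2, Aco1 and Cybrd1 kept their direction in all of them. The count of the 10 genes higher at an unadjusted p under 0.05 was 1, and 2 with the replicate block, which added Ftl1, and it was 1 to 2 with single mice left out. Among all genes, 1350 had an unadjusted p under 0.05, 1815 with the replicate block, and 846 to 2133 with single mice left out, the lowest without KO mouse 3 and the highest without KO mouse 1. The 1 gene with an adjusted p under 0.05 became 93 with DESeq2, 2 with no filter, 0 with 10 counts in every mouse, 0 with the replicate block, 4 with the Xist or Y group as a covariate, 3 with limma on log2(FPKM + 1) without a filter, and 0 to 4 with single mice left out. The causes were not tested. With single mice left out, log2 fold changes that crossed 0 ran from -0.17 to 0.11 for Slc40a1, -0.15 to 0.050 for Tfrc, -0.023 to 0.089 for Fth1, -0.020 to 0.040 for Ireb2 and -0.18 to 0.52 for Slc46a1, and Ireb2 was -0.0039 with upper-quartile factors. The median of all genes was -0.016 with TMM, -0.011 with RLE and -0.031 with upper-quartile factors. Abcg2 kept an unadjusted p under 0.05 in 18 of 18 fits, Abcb10 in 15, Egln1 in 10 and Flvcr1 in 6. At this depth and with 4 mice a genotype, 66% of simulated 2-fold changes were recovered. The simulation held no variation shared by the genes of a mouse, so recovery in the real mice may be lower. The low counts of Cybrd1 (51 to 310 per mouse) add counting error.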
